A study of Homo sapiens with 5 samples.

Results

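The genes of MHC class I antigen presentation described here were 9 of the 36601 genes in the count tables, and they were taken by symbol: HLA-B, HLA-C, HLA-E, B2M, TAP1, TAP2, PSMB8, PSMB9 and NLRC5. All 9 were above the 5 CPM (UMIs scaled to a fixed library total, as is usual) asked of a gene over all nuclei. The human lung adenocarcinoma lines H2228, H1975, A549, H838 and HCC827 had been grown separately in RPMI medium with fetal calf serum and antibiotics, with no cytokine or other treatment and no repeat cultures named. Cells of the 5 lines were mixed, and their nuclei were sorted and profiled with a Multiome assay, in which RNA and accessible DNA (ATAC) from the same nucleus carry the same barcode. From the droplets an 80% and a 20% portion were made, each with a single library per assay. Replicates were therefore lacking, and differences carry counting intervals (95%, exact) but no test.

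The 80% tables held 6557 nuclei, 95455518 RNA UMIs (distinct captured RNA molecules) and 63920767 ATAC counts in 158342 peaks, and the 20% tables held 1286 nuclei and 14346346 UMIs. Of the 20% barcodes, 159 were also in the 80% tables, and the other 1127 served as a repeat. No label of a nucleus' line was used, so a cluster may hold 1 line or several, and nuclei were grouped into 5 clusters by their RNA, with the 9 genes and all other listed genes of antigen presentation kept out of the clustering. Cluster 0, led by NLGN1 and AC004875.1, held 2468 nuclei. Cluster 1 (ZBTB46-AS1 and CARD18) held 1464, cluster 2 (RBFOX3 and IGSF11) 1460, cluster 3 (PLK5 and AC073365.1) 835 and cluster 4 (KCNH7 and AC090578.1) 330. Between 96.4% and 99.0% of the nuclei of a cluster were also together in 1 cluster made from ATAC alone. No cluster was given the name of a line. The 5 epithelial markers EPCAM, KRT8, KRT18, KRT19 and CDH1 summed to between 1370.1 and 9224 CPM in a cluster. Of the immune markers, PTPRC stood at no more than 0.740 CPM in any cluster, CD3E at no more than 0.105 and LYZ at no more than 0.0955, and MS4A1 had no UMI.

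MHC class I molecules show peptides from inside a cell to CD8 T cells and natural killer cells. A heavy chain such as HLA-B, HLA-C or HLA-E pairs with the light chain beta-2 microglobulin (B2M). Their peptides are cut by the proteasome and carried into the endoplasmic reticulum by the transporter TAP1-TAP2. PSMB8 and PSMB9 are catalytic subunits that replace their constitutive counterparts in the immunoproteasome, and NLRC5 is the transactivator that acts at class I promoters through the SXY module. Interferon gamma raises most of these genes, and tumours, lung adenocarcinoma included, can lose them.

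The promoter letters through which these inputs are known to act are shown first, because the later RNA and chromatin values belong to these starts. RefSeq promoter sequence (GRCh38.p14, 250 bases before to 50 after a start) was at hand for 7 of the 9 genes, with 9 starts, and was not at hand for HLA-E and NLRC5. HLA-B and HLA-C held TGACGC, the core of the X2 box of the SXY module, at positions -106 to -101 and -105 to -100, where 0 is the start. HLA-B also held GGGNNTTCC, a pattern bound by NF-kB, at -177 to -169, and the HLA-C stretch that lined up best with it shared 28 of 30 bases and 8 of the 9 in the pattern. Capitals mark the matched pattern, or the bases lined up with it.
HLA-B X2 (chr6:31357268-31357297, minus strand): ccaggatactcgTGACGCgtccccacttcc
HLA-C X2 (chr6:31272180-31272209, minus strand): cctgaatactcaTGACGCgtccccaattcc
HLA-B NF-kB (chr6:31357337-31357366, minus strand): gcgcagcgttGGGGATTCCccactcccctg
HLA-C lined up (chr6:31272246-31272275, minus strand): gcgccgcgttGGGGATTCTccactcccctg

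The core of the interferon-stimulated response element, GAAA followed after any 2 bases by another GAAA, was in promoters of B2M, TAP1, TAP2 and PSMB8. In TAP1 and B2M it occurred at a pair of places that share bases. In the TAP1 window below the element reads on the other strand.
TAP1 (chr6:32853819-32853848, minus strand): aggcggccgcTTTCGATTTCgctttcccct
TAP2 (chr6:32838778-32838807, minus strand): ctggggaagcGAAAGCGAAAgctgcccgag
B2M (chr15:44711363-44711392, plus strand): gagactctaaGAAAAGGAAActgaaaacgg
Of 35116 promoters of the same length, searched on both strands, 3.57% held this core, 6.58% GGGNNTTCC and 9.14% TGACGC. GGGNNTTCC was also in promoters of B2M and PSMB8, and TGACGC also in that of TAP2. TTCNNNGAA, the pattern of GAS elements, was in promoters of PSMB8 and TAP1 and in 7.66% of all, and CCAAT in those of B2M, HLA-B, HLA-C, PSMB9 and TAP1 and in 34.6% of all. No match of a pattern shared bases with that of another pattern, and these are matches of letters, not measured binding.

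Among the 9 genes, the classical heavy chains set the clusters farthest apart. HLA-B (chr6:31353875-31357179) stood at 658 CPM in cluster 0, 343 in cluster 3, 284 in cluster 4, 108 in cluster 2 and 65.8 in cluster 1. HLA-C (chr6:31268749-31272092) stood at 624, 229, 217, 102 and 62.4 CPM in the same order of clusters. Cluster 0 was thus 10.0-fold above cluster 1 for HLA-B (interval 9.45 to 10.6) and 10.0-fold for HLA-C (9.45 to 10.6). For HLA-B no neighbours in this order had an interval that held 1, whereas for HLA-C clusters 3 and 4 were 1.05-fold apart (0.984 to 1.13). In the 20% portion HLA-B was 7.65-fold (6.70 to 8.76) and HLA-C 10.2-fold (8.66 to 12.1) above cluster 1, with the clusters in the same order. HLA-B and HLA-C share long stretches of sequence and the lines can carry alleles unlike the reference, so the split of UMIs between them is uncertain, and their order between clusters can carry that too.

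RNA freed from broken nuclei enters other droplets, and no cluster was known to lack class I RNA, so the class II genes HLA-DRA and CD74 of cluster 0 served as a gauge. HLA-DRA, a class II chain, stood in cluster 1 at 9.62% and in cluster 2 at 10.5% of its cluster 0 level of 240 CPM. CD74, the class II invariant chain, stood at 7.49% and 9.96% of its 388 CPM, next to 10.0% and 16.5% for HLA-B and 9.99% and 16.3% for HLA-C. The other class II genes listed gave unlike shares in clusters 1 and 2. These were 17.4% and 20.5% for HLA-DMA, 10.3% and 94.5% for HLA-DMB and 6.32% and 4.79% for CIITA. The share of HLA-DMA was above those of HLA-B and HLA-C, so corrected values depend on the genes chosen as gauge. The HLA-B to HLA-C ratio of UMIs in the 80% portion was 1.05, 1.06 and 1.06 in clusters 0, 1 and 2, against 1.5 in cluster 3 and 1.31 in cluster 4. In the 20% portion the ratio was 1.15 in cluster 0, 1.54 (1.25 to 1.90) in cluster 1 and 1.41 (1.15 to 1.72) in cluster 2. With the HLA-DRA and CD74 shares taken off, HLA-B was left at 9.52 CPM in cluster 1 and 41.2 in cluster 2, and HLA-C at 8.95 and 38.1. The levels of these chains in clusters 1 and 2 are therefore given as upper values, and the part of free RNA in them was not tested. The lead genes NLGN1 and AC004875.1 of cluster 0, which were chosen for their steep fall to other clusters, stood at 0.222% to 0.930% of their own level in clusters 1 and 2.

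Per nucleus, cluster 0 again stood apart. When nuclei were thinned to 5000 UMIs each, leaving out 101 shallower ones, 22 of 2443 nuclei of cluster 0 had no UMI of HLA-B or HLA-C (0.901%, interval 0.565% to 1.36%). This share was 53.2% in cluster 1, 34.1% in cluster 2, 13.7% in cluster 3 and 10.6% in cluster 4. UMIs of the 9 genes together had a median of 20 per thinned nucleus in cluster 0, 12 in cluster 3, 9 in cluster 4, 7 in cluster 1 and 5 in cluster 2. The lower and upper deciles over nuclei were 12 and 30 UMIs in cluster 0 and 4 and 12 in cluster 1.

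B2M and HLA-E varied less. B2M (chr15:44711517-44718145), the light chain shared by all heavy chains, stood at 2318 CPM in cluster 0, 1662 in cluster 3, 1348 in cluster 4, 1304 in cluster 1 and 719.5 in cluster 2, a span of 3.22-fold (3.16 to 3.29). HLA-E (chr6:30489509-30494194), a non-classical chain that natural killer receptors read, stood at 102 CPM in cluster 0, 65.2 in cluster 3, 64.9 in cluster 4, 37.6 in cluster 1 and 37.2 in cluster 2, a span of 2.75-fold (2.52 to 3.01). Clusters 3 and 4 were 1.00-fold apart for HLA-E (0.884 to 1.14), and clusters 1 and 2 were 1.01-fold apart (0.904 to 1.13). For both genes cluster 2 was the lowest, while for HLA-B and HLA-C it was cluster 1. In cluster 1 B2M stood at 56.2% of its cluster 0 level, while HLA-B stood at 10.0%.

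**Figure D1:**
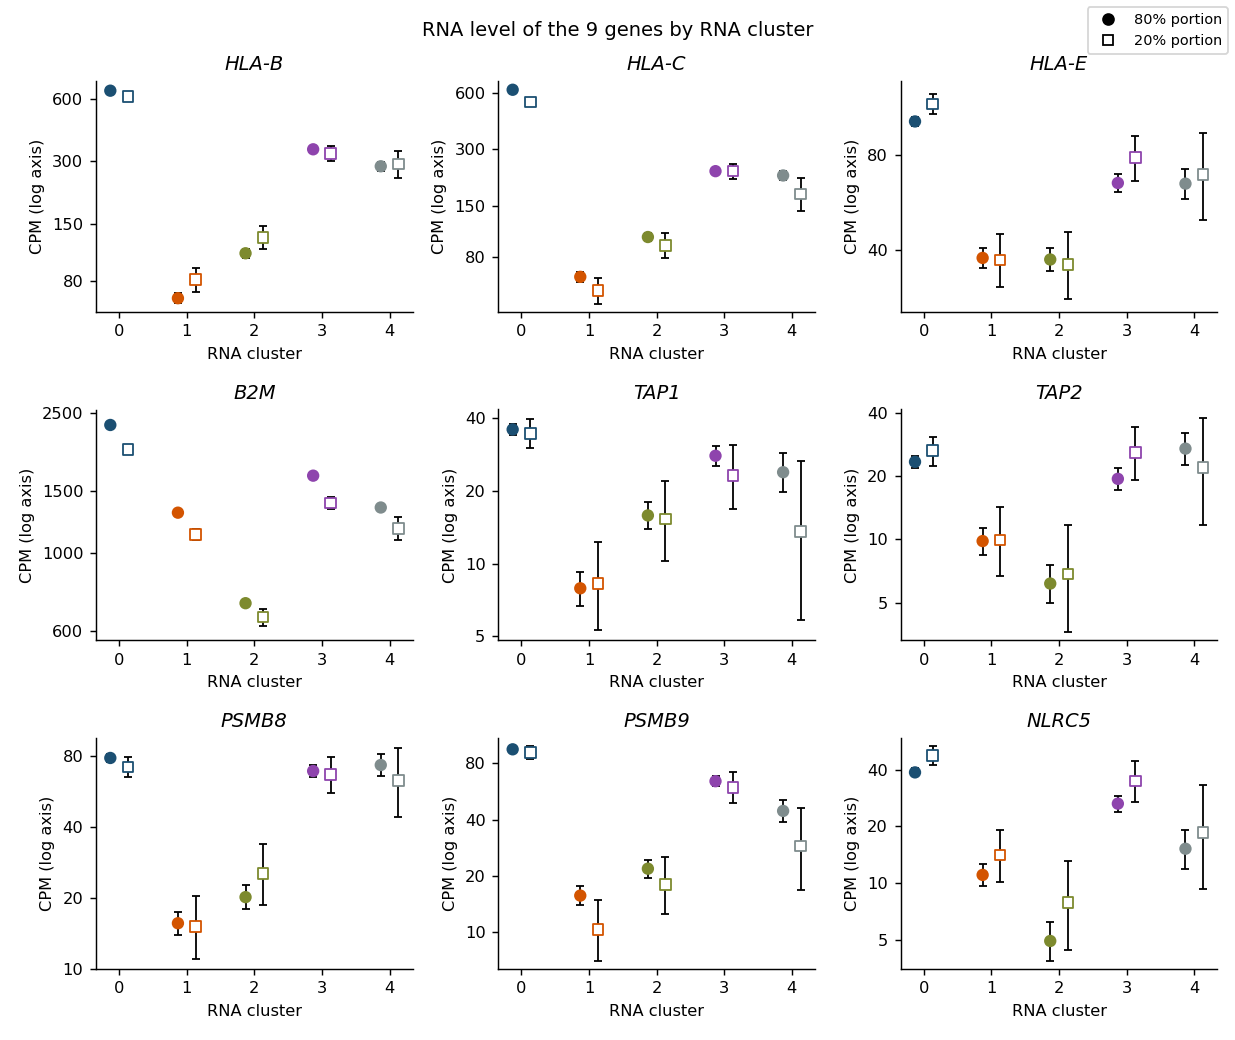
RNA level (CPM, log axes that differ between panels) of the 9 genes in the 5 RNA clusters; filled circles are the 80% portion, open squares the 20% portion, and bars the exact 95% counting intervals. Cluster 0 was highest for 8 of 9 genes in the 80% portion, TAP2 being the exception, and clusters 1 and 2 held the lowest level of all 9.

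The transporter subunits had low levels in every cluster. TAP1 (chr6:32845209-32853704) stood at 35.9 CPM in cluster 0, 28.0 in cluster 3, 23.9 in cluster 4, 15.8 in cluster 2 and 7.89 in cluster 1, a span of 4.55-fold (3.85 to 5.42). TAP2 (chr6:32825415-32838739) stood at 27.0 CPM in cluster 4, 23.4 in cluster 0, 19.4 in cluster 3, 9.83 in cluster 1 and 6.18 in cluster 2, a span of 4.37-fold (3.32 to 5.77). The TAP2 levels of clusters 4 and 0 were 1.15-fold apart, with an interval that held 1 (0.955 to 1.39), and in the 20% portion cluster 0 was the higher with 26.4 CPM against 22.0. Although both subunits form 1 complex, their lowest clusters differed, TAP1 being lowest in cluster 1 and TAP2 in cluster 2. Cluster 2 was 2.0-fold above cluster 1 for TAP1 (1.63 to 2.48), while for TAP2 cluster 1 was 1.59-fold above cluster 2 (1.23 to 2.07).

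Among the immunoproteasome subunits, PSMB8 (chr6:32840717-32844047) stood at 78.1 CPM in cluster 0, 72.9 in cluster 4, 68.8 in cluster 3, 20.1 in cluster 2 and 15.6 in cluster 1. Clusters 0, 4 and 3 formed a high set, since clusters 0 and 4 (1.07-fold, 0.960 to 1.20) and clusters 4 and 3 (1.06-fold, 0.937 to 1.20) had intervals that held 1, while cluster 3 was 3.42-fold above cluster 2 (3.0 to 3.91). PSMB9 (chr6:32854192-32859851) was graded instead, with 95.3 CPM in cluster 0, 64.3 in cluster 3, 44.5 in cluster 4, 21.8 in cluster 2 and 15.6 in cluster 1. Their spans were 5.01-fold (4.45 to 5.66) for PSMB8 and 6.10-fold (5.42 to 6.88) for PSMB9. PSMB8 overlaps the antisense gene PSMB8-AS1, and the sources used here do not say whether the counting used strand.

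NLRC5 (chr16:56989557-57083520) stood at 38.6 CPM in cluster 0, 26.4 in cluster 3, 15.2 in cluster 4, 11.1 in cluster 1 and 4.96 in cluster 2. Its span of 7.80-fold (6.16 to 10.0) was the widest after HLA-B and HLA-C among the 9 genes. With the HLA-DRA and CD74 shares taken off, cluster 2 was left at 1.01 CPM and the span was 38.2-fold, again after HLA-B (69.1-fold) and HLA-C (69.8-fold). The same correction gave 12.7-fold for PSMB9, 8.78 for PSMB8, 7.45 for TAP1, 6.40 for TAP2, 4.80 for B2M and 3.83 for HLA-E. All these corrected spans depend on the choice of HLA-DRA and CD74, and how much of a low level was free RNA was not tested. No neighbours in the NLRC5 order had an interval that held 1, although clusters 4 and 1 came near with 1.38-fold (1.04 to 1.80). Cluster 1 had 2.24 times the NLRC5 level of cluster 2 (1.71 to 2.96), while for HLA-B cluster 2 had 1.65 times the level of cluster 1 (1.53 to 1.77).

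In all, 7 of the 9 genes had their highest and lowest cluster at least 4-fold apart, where 26.3% of the 12559 genes with at least 5 CPM did. The median span was 5.01-fold for the 9 genes and 2.33-fold for all genes. Cluster 0 was highest for 8 of the 9, against 22.1% of all genes, and both highest and at least 4-fold above the lowest for 6, against 7.03%, and the lowest cluster was 1 or 2 for 9 of 9, against 47.8%. In the 20% portion 6 of 9 were at least 4-fold apart, where 28.6% of genes were, TAP2 being 3.84-fold apart there. Summed, the 9 genes made up 3974 CPM in cluster 0, 2507 in cluster 3, 2099 in cluster 4, 1529 in cluster 1 and 1036 in cluster 2, so that cluster 0 was 3.84-fold above cluster 2 (3.77 to 3.90). Without B2M, which carried most of this sum, cluster 0 was 7.33-fold above cluster 1 (7.11 to 7.56). The 9-gene ratio was 3.56 (3.39 to 3.73) in the 20% portion and 6.31 with the HLA-DRA and CD74 shares taken off. Scrublet called 8.18% of cluster 0, 4.45% of cluster 2 and 0.478% of cluster 1 doublets. Without the called doublets of all clusters, the 9-gene ratio of cluster 0 over cluster 2 was 4.14.

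Other genes of the pathway were set beside these from lists of its functions, and their counts at least 4-fold apart stand against 26.3% of all genes. Of 7 genes of peptide loading and trimming, 1 was at least 4-fold apart: ERAP2, an aminopeptidase that trims peptides in the endoplasmic reticulum, stood at 118 CPM in cluster 0 and 5.70 in cluster 1, 20.6-fold apart (17.1 to 25.2). The spans of these 7 ranged from 1.33- to 20.6-fold with a median of 2.0-fold. Cluster 0 was highest for 3 of them, against 22.1% of all genes. TAPBPL, a peptide editor related to tapasin, was named after its values were seen, being just under 4-fold. It stood at 17.5 CPM in cluster 0 and 4.55 in cluster 2 (3.85-fold, 3.0 to 5.02). Of 6 other proteasome genes none was 4-fold apart. PSMB5, the constitutive counterpart of PSMB8, spanned 1.86-fold with cluster 1 highest at 598 CPM, and PSMB6, the counterpart of PSMB9, spanned 2.01-fold with cluster 0 lowest at 143 CPM. PSMB8 and PSMB9 were thus highest in another cluster than their counterparts. PSMB10, the remaining catalytic subunit of the immunoproteasome and no member of the 9, was likewise named after its values were seen. PSMB10 stood at 70.9 CPM in cluster 4 (63.6 to 78.8) and 66.7 in cluster 0 (64.2 to 69.2), with intervals that overlapped. It spanned 1.93-fold (1.68 to 2.22).

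Among 19 genes of interferon signalling and class I transcription, 2 were at least 4-fold apart, where 26.3% of all genes were. IRF1, an interferon-induced factor that binds the response element printed above, stood at 94.1 CPM in cluster 4 and 14.5 in cluster 1 (6.48-fold, 5.57 to 7.55), and at 52.5 CPM in cluster 4 in the 20% portion. IRF9, a DNA-binding factor of the type I interferon response, stood at 44.7 CPM in cluster 4 and 8.15 in cluster 2 (5.49-fold, 4.37 to 6.92). In the 20% portion IRF9 was 3.66-fold apart (1.95 to 6.92), while RFXAP of the same list was 4.25-fold apart (2.20 to 9.16). Neither IRF1 nor IRF9 was highest in cluster 0, where 8 of the 9 class I genes were. Of the 19 genes of this list, 5 were highest in cluster 0, against 22.1% of all genes, and 6 were in the 20% portion.

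All 5 class II genes listed were at least 4-fold apart and highest in cluster 0 in the 80% portion, and 4 of 5 were so apart and 4 of 5 highest there in the 20% portion. Of all genes in the 80% portion, 26.3% were at least 4-fold apart, 22.1% were highest in cluster 0 and 7.03% were both. In the 20% portion 28.6% of genes were at least 4-fold apart. CIITA, the class II counterpart of NLRC5, stood at 9.93 CPM in cluster 0, 3.50 in cluster 3, 1.03 in cluster 4, 0.627 in cluster 1 and 0.475 in cluster 2, from 416, 52, 5, 12 and 7 UMIs. CD74 was 13.3-fold, HLA-DRA 10.4-fold and HLA-DMA 6.40-fold above its lowest cluster. HLA-DMB, a peptide exchange factor of class II, stood at 16.2 CPM in cluster 0 and 15.3 in cluster 2, with intervals that overlapped, and at 1.03 to 3.44 in the other clusters. In the 20% portion it was higher in cluster 2, at 17.4 CPM against 15.6 in cluster 0.

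**Figure D2:**
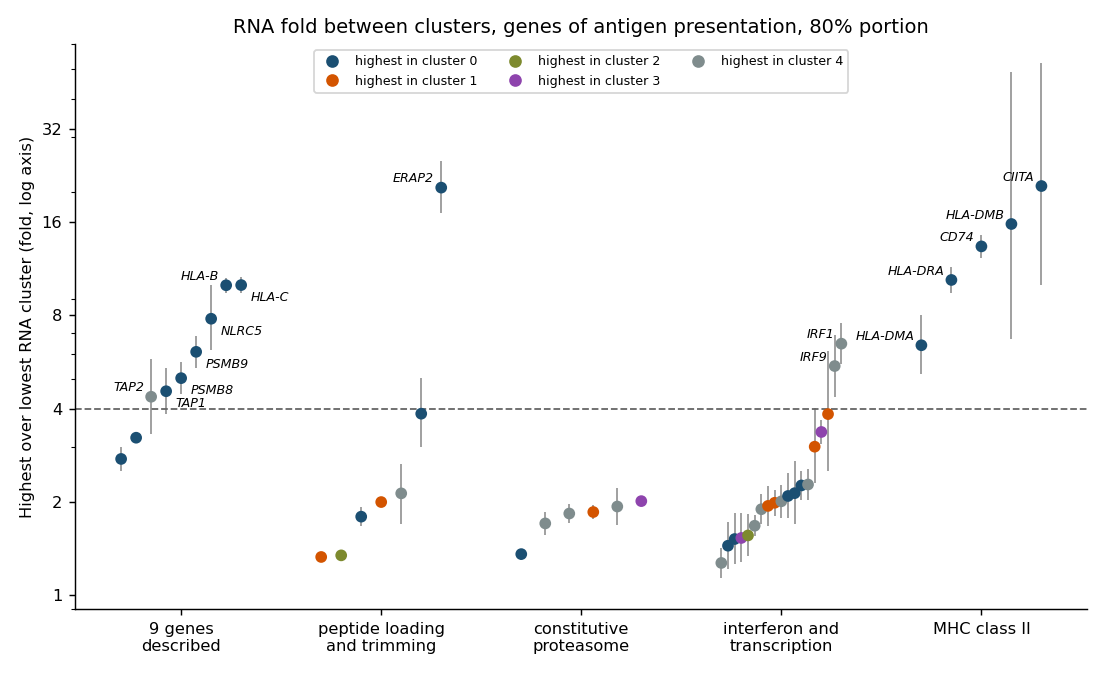
Fold between the highest and the lowest RNA cluster (log axis) for the 9 genes and the other lists in the 80% portion; each point is a gene, its colour the cluster with the highest level, vertical lines exact 95% counting intervals, and the dashed line 4-fold. The 9 class I genes and the 5 class II genes are mostly above the line, and the 6 other proteasome genes are all below it.

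Chromatin at the gene starts differed less than the RNA. Peaks within 1000 bp of the annotated start (GENCODE v44, hg38) were found for all 9 genes, TAP1 and PSMB9 sharing 1 peak between their divergent starts. At HLA-B the start peak stood at 17.2 ATAC CPM in cluster 0, 7.46 in cluster 3, 6.93 in cluster 4, 4.60 in cluster 2 and 3.72 in cluster 1 (CPM of all ATAC counts in peaks), or 4.63-fold apart (3.03 to 8.36). At HLA-C it stood at 26.6, 10.6, 14.6, 14.8 and 17.4 in the same order of clusters (2.51-fold, 1.85 to 3.25), so cluster 1, lowest in HLA-C RNA, stood next to cluster 0 in accessibility. The caution on alleles unlike the reference at HLA-B and HLA-C holds for these ATAC counts too. The part of such alleles in them was not tested. The NLRC5 start stood at 29.6 in cluster 0, 20.8 in cluster 4, 20.1 in cluster 3, 13.8 in cluster 2 and 13.8 in cluster 1 (2.14-fold, 1.65 to 2.79). Most ATAC counts were even numbers, so their intervals were computed on the counts divided by 2.

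The other starts were under 2-fold apart. PSMB8 spanned 1.85-fold (1.53 to 2.38), HLA-E 1.58-fold (1.16 to 2.11), TAP2 1.29-fold (0.949 to 1.67), the peak of TAP1 and PSMB9 1.28-fold (1.00 to 1.70) and B2M 1.28-fold (0.969 to 1.69). Cluster 0 had the highest start-peak level for all 9 genes, against 19.3% of genes, with the peak of TAP1 and PSMB9 counted for both. For B2M this held for its 2 peaks summed. The peak over the B2M start itself stood at 31.9 CPM in cluster 1 and 30.7 in cluster 0. The spans of B2M and TAP2 had intervals that held 1. Start peaks were at least 2-fold apart for 3 of the 9, where 52.4% of 16957 genes were, and the median was 1.58-fold for the 9 and 2.05-fold for all genes. The median of the 9 was thus above that of all genes in RNA and below it at the starts, although the starts of HLA-B, HLA-C and NLRC5 were above it. The comparison with all genes was not matched for peak counts, and a span between highest and lowest cluster widens where counts are few. The share of PSMB9 RNA in cluster 1 relative to cluster 0 was 16.4%, while its start peak there stood at 33.1 against 40.2 CPM. In the 20% portion the start peaks of HLA-B (8.67-fold, 2.06 to 31.6), HLA-C (6.26-fold, 1.1 to 16.4) and NLRC5 (3.04-fold, 1.05 to 15.6) were again the ones at least 2-fold apart, from 4, 3 and 6 counts in the lowest cluster. There cluster 0 had the highest start peak of HLA-B, HLA-C, PSMB8 and NLRC5, and other clusters had that of the remaining members.

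**Figure D3:**
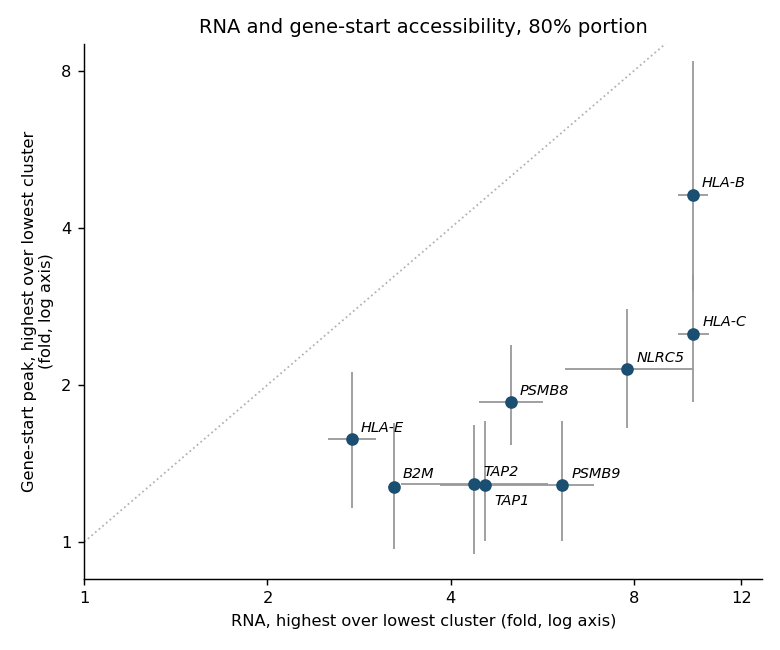
Span of RNA (horizontal) against span of the gene-start peak (vertical) for the 9 genes in the 80% portion, both as highest over lowest cluster on log axes; lines are 95% counting intervals and the dotted line marks equal spans. All 9 genes lie below the dotted line, among them PSMB9 with 1.28-fold in ATAC against 6.10-fold in RNA and HLA-B with 4.63 against 10.0.

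Within 50 kb of the starts but outside the start peaks lay 67 peaks, of which 22 had at least 5 CPM over all nuclei. Of these 22, 13 were at least 2-fold apart, where 75.8% of all peaks of that level were, and 11 were both 2-fold apart and highest in cluster 0, where 20.1% were. Cluster 0 gave 29121688 of the 63920767 ATAC counts, so peaks high there reached 5 CPM more readily, near the members and elsewhere. A peak before the NLRC5 start (chr16:56984359-56985070) was left out with 317 counts. It stood at 16.2 CPM in cluster 4 and 15.4 in cluster 3, against 2.85 in cluster 0 and 0.637 in cluster 1 (25.4-fold). The widest of the 13 was inside NLRC5, where another peak was also among them. The peak at chr16:57000272-57001185, in an intron 11.2 kb past the start, stood at 29.4 CPM in cluster 0, 15.1 in cluster 3, 8.47 in cluster 4, 3.29 in cluster 1 and 3.19 in cluster 2 (9.24-fold, 5.51 to 14.2). The peak at chr16:57012967-57013862, 23.9 kb past the start and at an exon of ENSG00000259922, stood at 15.7, 6.97, 3.08, 1.59 and 0.354 in the same order, 44.4-fold apart with only 4 counts behind the lowest value. The order of clusters in this peak was that of NLRC5 RNA.

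**Figure D4:**
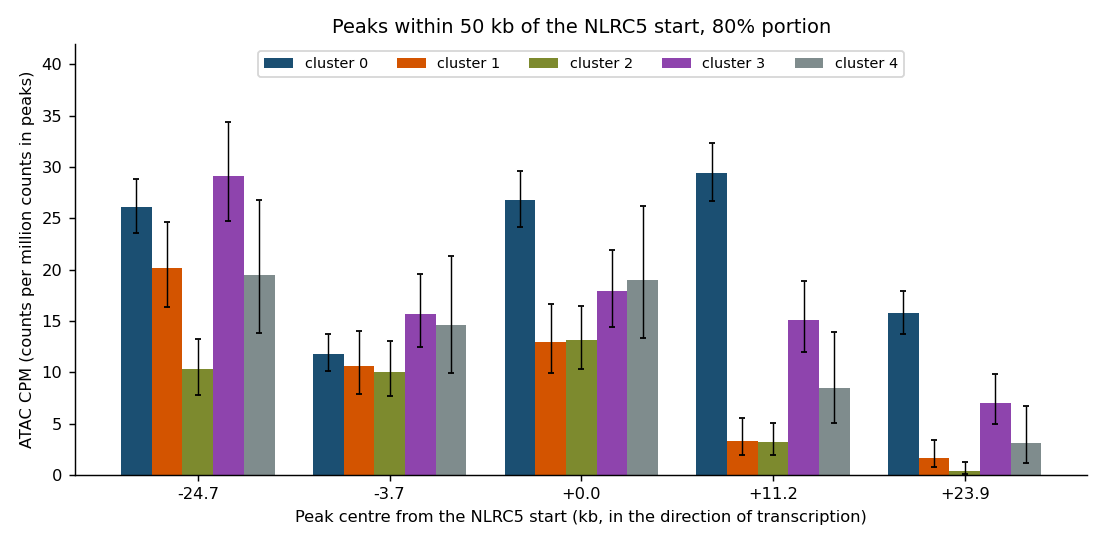
ATAC CPM in the 5 peaks near the NLRC5 start that had at least 5 CPM over all nuclei, by RNA cluster in the 80% portion; the horizontal axis gives the peak centre in kb from the start and bars carry 95% counting intervals computed on the counts divided by 2. The clusters are close at -3.7 kb, 2.07-fold apart at the start and 9.24-fold and 44.4-fold apart inside the gene.

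Near the heavy chains, an intergenic peak 25.9 kb past the HLA-C start (chr6:31245689-31246605) stood at 20.9 CPM in cluster 0, 17.7 in cluster 4, 7.36 in cluster 3, 3.01 in cluster 2 and 1.70 in cluster 1 (12.3-fold, 6.32 to 29.5). Around HLA-E 4 of 7 peaks, its start peak counted among the 7, were at least 2-fold apart, all highest in cluster 0. Of all peaks with at least 5 CPM, 75.8% were so apart, and 20.1% were so apart and highest in cluster 0. The RNA of HLA-E spanned least among the members. At B2M a peak in an intron of PATL2 (chr15:44682997-44683912) was highest in cluster 4 at 13.6 and lowest in cluster 1 at 2.02. Near the transporter and proteasome genes a peak in an intron of HLA-DOB (chr6:32819448-32820349) stood at 10.6 in cluster 0 and 0.708 in cluster 2, and those 4 genes share it within their windows.

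The neighbours of the members were measured in the same way. Within 5 Mb, 152 other genes around the MHC stood at a median of 0.21 on the log2 scale in cluster 0 relative to the mean of the other clusters, and 592 peaks at 0.31, while the 7 members there stood at 1.00. In cluster 1 the medians were 0.01 for genes and 0.00 for peaks, against -1.85 for the members, and in cluster 2 they were -0.41 and -0.16 against -1.48. Around NLRC5, 48 genes stood at -0.20 and 191 peaks at 0.11 in cluster 0, where NLRC5 stood at 1.42. In cluster 4 the MHC members stood at 0.10, with their neighbours at -0.18 for genes and -0.15 for peaks. B2M stood at 0.88 in cluster 0, where 81 genes around it stood at -0.02 and 200 peaks at 0.04, and at -0.15 in cluster 4, where they stood at -0.23 and -0.08. In clusters 0, 1, 2 and 3 the members of each of the 3 loci lay farther from the other clusters than the medians of their neighbours. In cluster 4 NLRC5 also did (-0.41), whereas the MHC members lay nearer than both medians and B2M nearer than that of its neighbouring genes. A median over many neighbours hides how far single neighbours lie. It therefore cannot show whether the members differ from single genes around them, which was not tested.

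Within a cluster, nuclei with RNA of 1 member were compared for another. In cluster 0 at 5000 UMIs, PSMB9, which shares its start region with TAP1, was seen in 149 of 381 nuclei with a TAP1 UMI (39.1%, 34.2% to 44.2%) and in 738 of 2062 without one (35.8%, 33.7% to 37.9%). At 5000 UMIs the share was higher with a TAP1 UMI in each of the 5 clusters, but the intervals overlapped in each. Without doublets it was lower in cluster 4, at 15.2% against 18.9%. With all UMIs, the shares in cluster 0 were 76.7% (73.9% to 79.2%) and 69.9% (67.5% to 72.3%), so these intervals did not overlap. Deeper nuclei show more of every gene, so the all-UMI difference cannot be told apart from depth. At 5000 UMIs a joint presence of TAP1 and PSMB9 was not detectable beyond counting error. Over the 6557 nuclei, with cluster means taken off, HLA-B was closest to HLA-C (r = 0.30) and B2M (r = 0.29), and TAP2 to ANLN, a cytokinesis gene (r = 0.11). PSMB8 and PSMB9 had r = 0.12 with each other, and for NLRC5 no gene reached 0.1. These points share libraries and the depth of a nucleus.

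Across the 5 clusters of both portions (10 points that share clusters), genes outside the pathway were among those that correlated most with each member. Among the 3 closest of 10598 genes with at least 20 CPM in a cluster were PRSS23 for HLA-B (r = 0.992) and HLA-C (r = 0.988), TMEM173 for HLA-E (r = 0.984), CTSC for B2M (r = 0.960), UBA6-AS1 for TAP1 (r = 0.977), VEGFA for TAP2 (r = 0.977), EFNB2 for PSMB8 (r = 0.997), NETO2 for PSMB9 (r = 0.986) and LUC7L2 for NLRC5 (r = 0.977). Only 5 groups of nuclei underlie these points. Because the genes were picked as the closest from so many, high r values cannot show a link, which was not tested.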

How the data were processed

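The authors deposited whole-number counts of RNA UMIs per gene and ATAC counts per peak for barcodes called as cells, made with Cell Ranger ARC 2.0.0 on GRCh38 per the submitters' processing notes. Peak positions are the deposited coordinates. The gene annotation and use of strand are not given in the sources used here. From the counts, CPM is a cluster's UMIs of a gene over all its UMIs. Variable genes (2000, without the listed genes), 30 components, 20 neighbours and Louvain clusters at resolution 0.02 came from Seurat 5.3.0 in R 4.3.3. Nuclei of the 20% portion took the most correlated cluster of the 80% portion, a rule that returned 98.1% of 80% nuclei to their own. ATAC was reduced by TF-IDF and singular value decomposition (scipy 1.17.1). Scrublet (scanpy 1.11.5) called 385 doublets, which stayed in. Intervals are exact Poisson, binomial or conditional binomial and cover counting error only. Fold functions were tested on simulated counts. The named genes are the 9 members, list genes at least 4-fold apart, counterparts of members, the genes closest to a member, cluster leads and markers. TAPBPL and PSMB10 were named after their values were seen. Members, lists and thresholds were chosen with earlier results of these data known. TMM factors came from edgeR 4.0.16. The long-read and combined tables and the line labels were not used here. Some items of the lists are not reported here.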

Additional observations from a re-analysis of the deposited data

How the results depend on the processing

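Every result rests on 1 library per assay and portion, so no library could be left out and no difference was tested. Replicates could not be paired because no group had any, although RNA and ATAC of a nucleus share a barcode. The ratio of the summed 9 genes, 3.84, became 4.14 without doublets, 3.36 with ATAC clusters, 3.93 as the mean of each nucleus' CPM, 3.93 after thinning, and 6.31 with the HLA-DRA and CD74 shares taken off. It stayed within its counting interval under the depth filter, without shared barcodes, with listed genes allowed in the clustering, with another seed, with TMM factors, with 6 clusters and with free RNA gauged from lead genes. The count of genes at least 4-fold apart was 7 under each of these except 8 with the HLA-DRA and CD74 shares taken off and 6 of 8 with HLA-B and HLA-C summed, and without a filter on low genes the background was 31.4% of 30692 genes. The count of start peaks at least 2-fold apart was 3 under each of the 9 alternatives run for it: the depth filter, doublets or shared barcodes removed, ATAC clusters, listed genes allowed, another seed, 6 clusters, a 2000 bp window and peaks counted as 0 or 1. The TAP1 and PSMB9 difference of 3.32 points (-2.05 to 8.82) was 6.77 with all UMIs (3.17 to 10.3) and 3.54 without doublets (-2.07 to 9.29). For single genes, none of the 108 alternative values changed direction, 85 stayed within the counting interval and 23 moved. Each compared the highest and lowest cluster of the main values in largely the same nuclei, so an unchanged direction says little. The order of closer clusters was not checked in this way, TAP2 being compared between clusters 4 and 2 and not between 4 and 0. The grouping with 6 clusters and both free RNA corrections were chosen after seeing the data.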

Other observations

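With 6 clusters in place of 5, cluster 3 was divided, nearly all of its nuclei being in a group of 473 or a group of 365. The first had EPCAM, an epithelial adhesion molecule, at 679 CPM and the second at 37.1, while TAGLN, an actin-binding protein of contractile and mesenchymal cells, stood at 8.48 and 244 CPM. HLA-B stood at 268 CPM in the EPCAM-high group and 460.2 in the TAGLN-high group (1.72-fold, 1.63 to 1.81), and NLRC5 at 19.2 and 37.6 CPM (1.96-fold, 1.60 to 2.41). B2M was slightly lower in the TAGLN-high group, at 1600.2 against 1705 CPM, and PSMB8 stood at 69.8 and 67.2 CPM, with an interval of the ratio from 0.847 to 1.09. The groups were described after their values were seen, and doublets were called in 10.5% of cluster 3.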
